A study of Homo sapiens with 6 samples.

Results

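The miR-28, miR-151a and miR-708 family comprises 3 related microRNA hairpins, each read on the array as a 5p and a 3p arm. The members were taken by name, as the probes for either arm of miR-28, miR-151a or miR-708, and all 6 (hsa-miR-28-5p, hsa-miR-28-3p, hsa-miR-151a-5p, hsa-miR-151a-3p, hsa-miR-708-5p and hsa-miR-708-3p) were present among the 2019 human probes. Of these 6, 4 were bright enough to be tested, against 324 of all 2019 probes. The cells were HuH7, an established line from a human hepatocellular carcinoma, after 24 h with cisplatin at 1 µg/ml (3 samples) and after 24 h without it (3 control samples). All samples come from this 1 line, and no genetic change separates the groups. Cisplatin is a platinum drug that crosslinks DNA. Total RNA was labelled with a single dye and hybridised to 1 array per sample. Replicates carry the numbers 1 to 3 in each group, but no label calls them separate cultures, and the spread behind every p-value may therefore be technical only.

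A microRNA is cut from a hairpin precursor, and either strand of the hairpin can enter an Argonaute protein, where its seed pairs with target messenger RNAs and lowers their output. The hairpins of this family are related in sequence, and each sits in an intron of a protein-coding gene. miR-28 lies within LPP, a gene for a focal adhesion protein, and is known as a suppressor of B cell lymphoma. miR-151a lies within PTK2, which encodes focal adhesion kinase, on a chromosome arm often gained in liver cancer, and miR-151a-5p is known to promote migration of liver cancer cells. miR-708 lies within TENM4, a teneurin gene, and in mouse cells the stress factor CHOP is known to induce it together with that host. The RefSeq annotation places all 3 hairpin genes inside the spans of these hosts, on chromosomes 3, 8 and 11.

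The mature sequences show how close the arms are to each other and a probe outside the family that carries the same seed. RefSeq on GRCh38.p14 gave 3 of the 6 members, miR-28-3p (chr3:188688834-188688855, plus strand), miR-708-5p (chr11:79402077-79402099, minus strand) and miR-708-3p (chr11:79402032-79402053, minus strand). miR-28-5p, miR-151a-5p and miR-151a-3p are named only. miR-3139 (chr4:143343469-143343491, plus strand), within GAB1, is shown for comparison. All are written 5′ to 3′, and the capitals mark the seed, bases 2 to 8.
miR-28-3p: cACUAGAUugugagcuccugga
miR-708-3p: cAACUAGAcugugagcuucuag
miR-708-5p: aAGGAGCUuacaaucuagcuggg
miR-3139: uAGGAGCUcaacagaugccuguu

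The 3p arms of miR-28 and miR-708 matched best when shifted by 1 base against each other, at 17 of 21 aligned bases, and their seeds are not the same. Each of these 3p seeds occurred in 1 of the 2370 mature names in the RefSeq table. The seed of miR-708-5p was shared by miR-3139, the other entry of that table with the same bases 2 to 8. miR-28-5p, known to have the same seed as miR-708-5p, was outside this search. Beyond the seed miR-708-5p and miR-3139 diverge, with 13 of 23 bases identical in all.

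The arms divided by hairpin in whether they could be measured. Detection was judged against the 925 blank spots of each array, as a raw foreground above the mean plus 2 SD of the blanks, a limit that lay between 208.63 and 246.53. All 4 arms of miR-28 and miR-151a lay above it on all 6 arrays, which is 24 of 24 values. The arms of miR-708 lay above it in 3 of 12 values. On the whole array, 329 to 713 probes were above the limit on cisplatin arrays and 500 to 738 on control arrays, with the lowest count on cisplatin replicate 2, where the blanks spread most. Quoted below are raw foreground values, the median brightness of the pixels of a spot, and normalized log2 values, after background correction and quantile normalization. The level of a probe is not set against that of another, since probes differ in brightness per molecule.

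**Figure D1:**
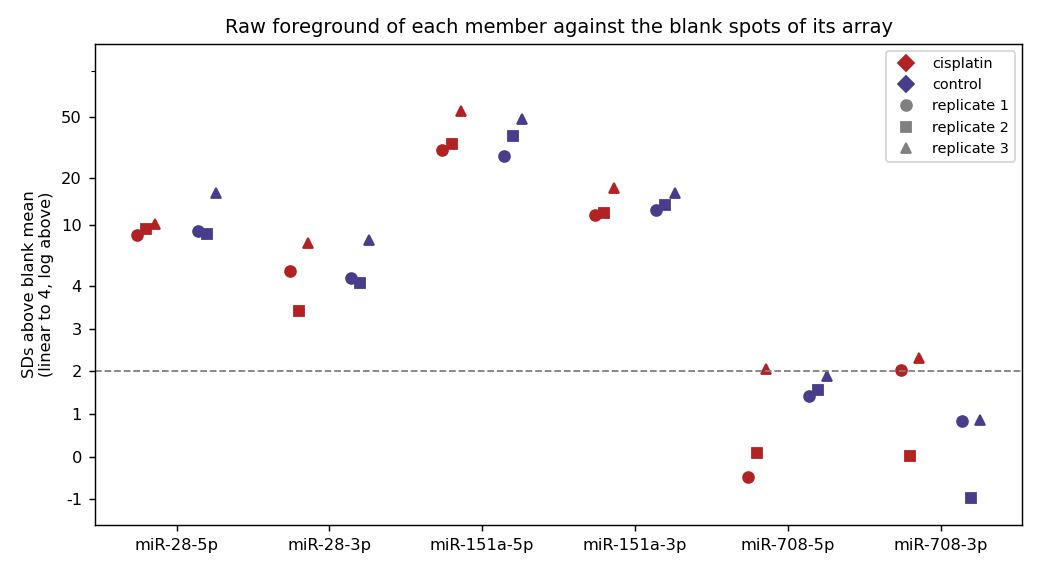
Raw foreground of the 6 members on each array, in SDs of the blank spots above their mean (vertical axis, linear up to 4 and logarithmic above). Points are single arrays, cisplatin (red) left of control (dark blue), and the dashed line marks the detection limit of 2 SD. The arms of miR-28 and miR-151a lie between 3.42 and 55.2 SD, and those of miR-708 between -0.977 and 2.32 SD.

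No tested arm of the family was called different between cisplatin and control arrays. Of the 4 tested members, 0 passed limma's test at a Benjamini-Hochberg adjusted p under 0.05 over all 324 tested probes, where 1 probe, 0.309% of those tested, passed. At an unadjusted p under 0.05 there were 0 of 4 members, against 15.7% of all tested probes. In 0 of 4 members were the groups free of overlap on the normalized scale, against 18.8% of tested probes. The median log2 difference, cisplatin minus control, was -0.017 over the 4 members and -0.012 over all tested probes. The 4 differences comprised 2 above 0 and 2 below. The median absolute difference was 0.030 for the members and 0.10 for all tested probes.

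miR-28-5p, the arm from the 5′ side of the LPP hairpin, had raw foregrounds of 290, 378 and 319 on cisplatin arrays 1, 2 and 3, against 306, 329 and 378 on control arrays 1, 2 and 3. Its highest readings, equal at 378, came from cisplatin replicate 2 and control replicate 3, and the groups overlapped. The normalized log2 means were 7.66 ± 0.177 in cisplatin and 7.81 ± 0.190 in control arrays (SD, n = 3 each). The log2 difference was -0.15 (SE 0.134, limma adjusted p = 0.727), with a 95% interval from -0.49 to 0.19, or a cisplatin to control ratio between 0.714 and 1.14. The difference was smaller than the SD within either group, and its interval includes a ratio of 1. Within same-numbered pairs it was -0.16, 0.18 and -0.48 for numbers 1, 2 and 3. The cisplatin array was lower in 2 of these 3 pairs. Of the other 323 tested probes, 122 had a larger absolute difference. Leaving out control replicate 3, the array with the highest reading in its group, brought the value to -0.049. Without cisplatin replicate 2, the highest in its group, it was -0.235.

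miR-28-3p, the opposite strand of the same hairpin, had foregrounds of 246, 272 and 290 on cisplatin arrays and 250, 269 and 292 on control arrays 1, 2 and 3. The same-numbered arrays lay within 4 units of each other, and the groups overlapped almost completely. Normalized means were 7.31 ± 0.0506 in cisplatin and 7.29 ± 0.144 in control arrays (SD, n = 3 each). The log2 difference was 0.017 (SE 0.0853, limma adjusted p = 0.963), with a 95% interval of the ratio from 0.873 to 1.17. Its foreground lay 3.42 to 8.01 blank SDs above the blank mean. Of the other tested probes, 89.8% had a larger absolute difference.

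miR-151a-5p, the arm known for its part in liver cancer cell migration, had foregrounds of 565, 812 and 825 on cisplatin arrays and 534, 721 and 722 on control arrays 1, 2 and 3. In 3 of 3 same-numbered pairs the cisplatin array gave the higher raw reading, by 31, 91 and 103 units, while the groups as a whole overlapped. Replicate 1 gave the lowest value in both groups. Raw foreground averaged 734 ± 147 in cisplatin and 659 ± 108 in control arrays (SD, n = 3 each).

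After quantile normalization that pairwise excess of miR-151a-5p remained in pair 1 only, at 0.023 log2 units. The normalized log2 values were 8.86, 9.12 and 9.22 on cisplatin arrays and 8.84, 9.12 and 9.22 on control arrays. They were identical in pairs 2 and 3, because the probe held the same rank on both arrays of each pair and quantile normalization gives equal ranks equal values. The log2 difference was 0.0075 (SE 0.14, limma adjusted p = 1), with a 95% interval of the ratio from 0.789 to 1.28. With the authors' deposited values, which are scaled by 1 factor per array, miR-151a-5p stood at 356.8, 600.9 and 633.7 on cisplatin arrays and at 339, 472.7 and 562.2 on control arrays. The log2 difference on those values was 0.20 (SE 0.29, limma adjusted p = 0.865). The median of all tested probes moved up by 0.15 there, and less that shift the value was 0.045. With median scaling in place of quantile normalization the difference was 0.099 (SE 0.151, limma adjusted p = 0.786), or 0.103 less the shift. With cyclic loess it was -0.035 (SE 0.13, limma adjusted p = 0.925).

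miR-151a-3p, the other strand of the PTK2 hairpin, had foregrounds of 327, 424 and 400 on cisplatin arrays and 345, 392 and 379 on control arrays 1, 2 and 3. The cisplatin values enclosed the control values, with the lowest and the highest reading both among them. Normalized means were 8.02 ± 0.127 in cisplatin and 8.06 ± 0.0298 in control arrays (SD, n = 3 each). The log2 difference was -0.042 (SE 0.0759, limma adjusted p = 0.867), with a 95% interval of the ratio from 0.852 to 1.11. This was the narrowest interval of the 4. Without cisplatin replicate 1, the lowest array, the value was 0.030. The other 5 fits with 1 array left out gave negative values, down to -0.091 without cisplatin replicate 2.

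**Figure D2:**
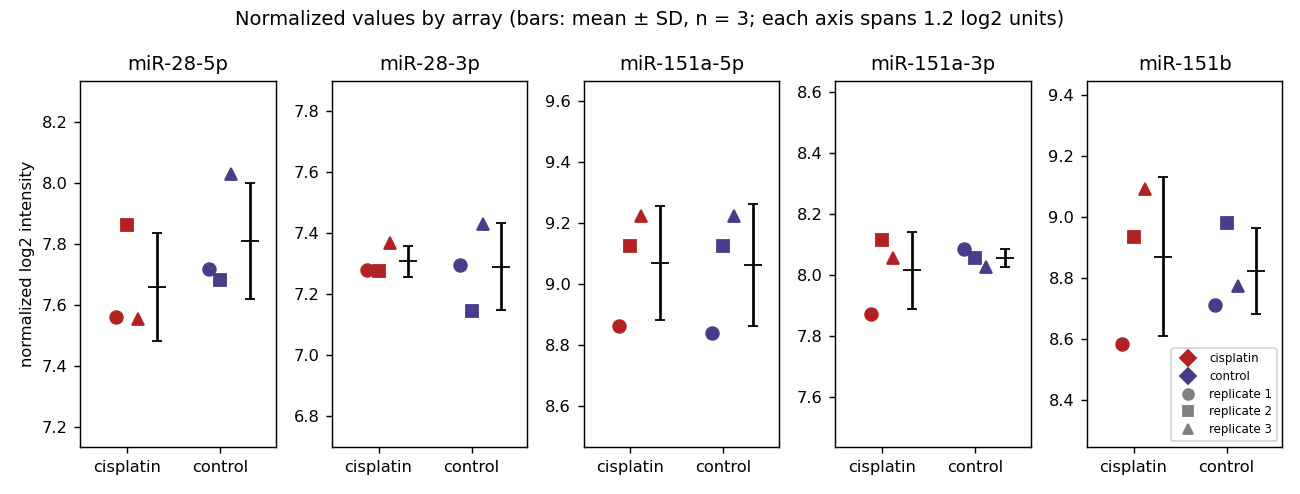
Normalized log2 intensity of the 4 tested members and of miR-151b on each array (points, marked by replicate number), cisplatin left of control, with mean ± SD beside each group (n = 3). Every panel spans 1.2 log2 units around its own mean, and the groups overlap in all 5, with miR-28-5p showing the largest gap between means at -0.15.

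The probe for miR-151b reads nearly the same RNA as that for miR-151a-5p. miR-151b is encoded within EVL on chromosome 14, and its mature sequence is so close to miR-151a-5p that signal on either probe may come from both RNAs, which these arrays cannot tell apart. Its foregrounds were 483, 700 and 738 on cisplatin arrays and 464, 653 and 567 on control arrays 1, 2 and 3. As for miR-151a-5p, the cisplatin array was higher in raw foreground in 3 of 3 pairs, replicate 1 was lowest in both groups, and the groups overlapped. The log2 difference was 0.047 (SE 0.152, limma adjusted p = 0.943), with a 95% interval of the ratio from 0.795 to 1.34. The within-array log2 difference of miR-151a-5p from miR-151b was 0.199 ± 0.0754 in cisplatin and 0.239 ± 0.180 in control arrays (SD, n = 3 each). These did not separate in a two-sided exact permutation test (p = 0.9, where 0.1 is the smallest p possible).

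The arms of miR-708 gave signals close to those of empty spots, at most 2.32 SD above their mean. miR-708-5p had foregrounds of 178, 212 and 228 on cisplatin arrays, against limits of 208.63, 246.53 and 227.38, and of 213, 234 and 227 on control arrays, against limits of 220.08, 239.83 and 228.06. It passed the limit on cisplatin replicate 3 only, and there by less than 1 unit. The raw mean was 206 ± 25.5 in cisplatin and 224.7 ± 10.7 in control arrays (SD, n = 3 each), with overlap.

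miR-708-3p had foregrounds of 209, 211 and 231 on cisplatin arrays and 206, 200 and 216 on control arrays 1, 2 and 3. It passed the limit on 2 of 3 cisplatin arrays, replicates 1 and 3, and on 0 of 3 control arrays. The raw cisplatin reading was higher in 3 of 3 pairs, by 3, 11 and 15 units, on arrays whose blank spots had SDs of 10.6 to 18.0. Neither arm was above the limit on all 3 arrays of a group, so neither entered the test. Fitted without a detection filter over all 2019 probes, miR-708-5p stood at -0.22 (SE 0.146) and miR-708-3p at 0.30 (SE 0.17), both with a limma adjusted p of 0.941. The authors' deposited values list miR-708-5p on 3 and miR-708-3p on 2 of 6 arrays. No change of miR-708 was detectable at this signal, and none is excluded.

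miR-3139, which shares the seed of miR-708-5p, was above the limit on 0 of 6 arrays. Its foregrounds were 197, 200 and 212 on cisplatin arrays and 199, 208 and 201 on control arrays, which overlap.

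The partner strands of a hairpin come from 1 precursor, and their probes were compared within each array. The 5p minus 3p log2 difference for miR-28 was 0.281, 0.587 and 0.186 on cisplatin arrays and 0.424, 0.537 and 0.596 on control arrays 1, 2 and 3. Cisplatin replicates 1 and 3 lay below all control values, and replicate 2 lay among them. The means were 0.352 ± 0.209 in cisplatin and 0.519 ± 0.0877 in control arrays (SD, n = 3 each), a difference of -0.167 (two-sided exact permutation p = 0.3, adjusted p = 0.6 over the 2 hairpins compared). With 3 arrays against 3 the smallest p possible is 0.1, so this test could not reach 0.05 whatever the values. For miR-151a, whose 5p probe may also take signal from miR-151b, the values were 0.987, 1.007 and 1.163 on cisplatin arrays and 0.750, 1.065 and 1.193 on control arrays. Here the cisplatin values all fell inside the range of the control values. The means were 1.05 ± 0.0965 in cisplatin and 1.00 ± 0.228 in control arrays (SD, n = 3 each), a difference of 0.0497 (exact permutation p = 0.9, adjusted p = 0.9).

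**Figure D3:**
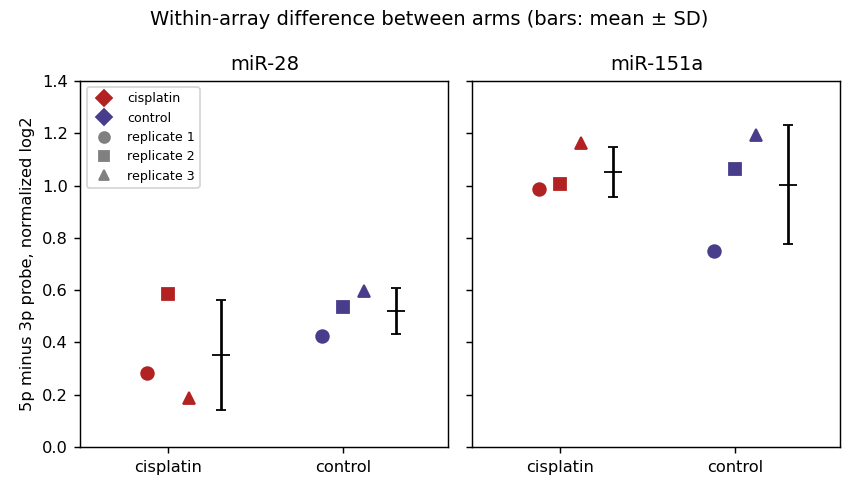
Within-array difference of the 5p and the 3p probe, in normalized log2 units, for miR-28 (left) and miR-151a (right), cisplatin left of control, with mean ± SD (n = 3). Points are single arrays. The height depends on the brightness of the probes, so only the groups of 1 panel can be compared, and they overlap in both.

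The span over the 6 arrays includes any difference between the groups, so it is set beside the spans of other probes only. Over the 6 arrays the normalized values of miR-28-5p spanned 0.476 log2 units, those of miR-151a-5p 0.383, those of miR-28-3p 0.287 and those of miR-151a-3p 0.243. The median span over all tested probes was 0.408. miR-28-5p thus varied more than 64.4% of the other tested probes and miR-151a-3p more than 14.2% of them. How closely the 2 arms of a hairpin follow each other was not tested. On the normalized scale the 5p arm of miR-151a was lowest on both replicate 1 arrays. Its 3p arm was lowest there on cisplatin replicate 1 and highest on cisplatin replicate 2. In raw foreground both arms of miR-151a were lowest on the replicate 1 array of each group.

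The tested probes outside the family with the most similar course over the 6 arrays were found by the root mean square difference of centred log2 values. For miR-28-5p these were miR-204-5p (0.0566), miR-301a-3p (0.0568) and miR-140-5p (0.0765), where the median over 320 probes was 0.221. For miR-28-3p they were miR-125b-5p (0.0376), miR-423-5p (0.0438) and miR-664b-3p (0.0581). For miR-151a-5p they were miR-15a-5p (0.0403), miR-551b-3p (0.0466) and miR-30c-5p (0.0488). For miR-151a-3p they were miR-192-5p (0.0304), let-7f-5p (0.0431) and miR-3651 (0.0535). These 12 probes had limma adjusted p-values from 0.31 to 1. The centred values keep the difference between the groups, so this range follows in part from how the probes were chosen. The measure describes only these 6 arrays.

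The chromosomal neighbourhood of miR-151a, the band 8q24, holds other miRNAs, among them miR-30b and miR-30d. A list of 42 arms from this band had 26 probes on the array and 8 tested probes, both arms of miR-151a included. Of the 8, 0 passed the limma test over all tested probes, where 0.309% passed, and 1 had an unadjusted p under 0.05, against 15.7% of all tested probes. In sign, 6 were positive and 2 negative, where all 324 tested probes divided into 155 and 169, with a median log2 difference of 0.066 against -0.012 for all tested probes. Of the 2 negative probes, miR-939-5p entered the test through the control arrays only, above the limit on 3 of them and on 0 cisplatin arrays. The highest was miR-30b-5p, of the miR-30 family, with normalized means of 9.56 ± 0.0281 in cisplatin and 9.32 ± 0.0830 in control arrays (SD, n = 3 each) and a log2 difference of 0.24 (SE 0.0594, limma adjusted p = 0.129). It was higher in 3 of 3 pairs. miR-30d-5p stood at 0.20 (SE 0.0885, limma adjusted p = 0.341) and miR-1234-5p at 4.3e-04 (SE 0.127). Both arms of miR-151a lay below this median, at 0.0075 and -0.042, and whether they differ from their neighbours was not tested.

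**Figure D4:**
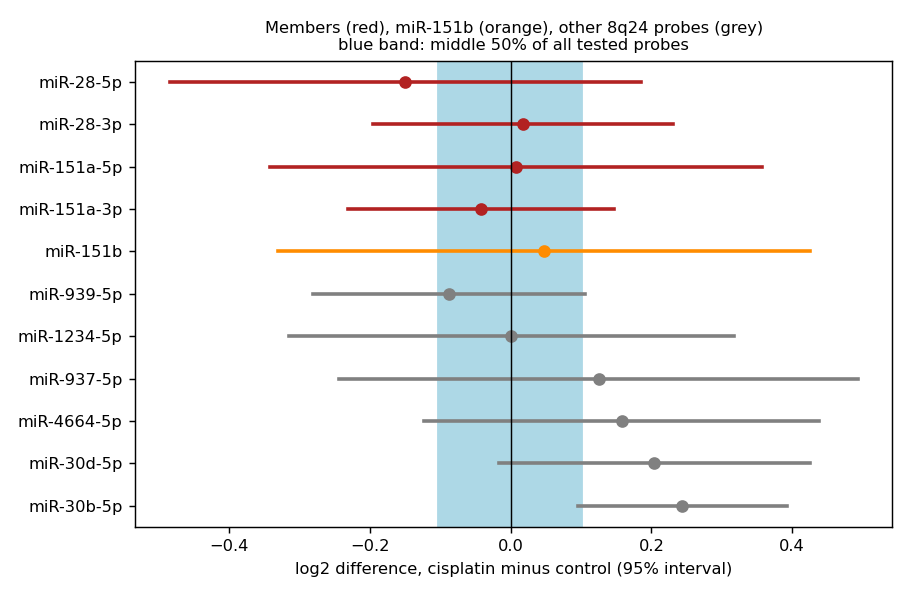
Log2 difference, cisplatin minus control, with its 95% interval, for the 4 tested members (red), miR-151b (orange) and the other 6 tested probes of 8q24 (grey). The blue band holds the middle 50% of all tested probes, from -0.103 to 0.101, and the intervals of the 4 members all include 0.

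The labelled cell type was checked on miRNAs known from liver, and all 6 liver probes, among them both arms of miR-122, were above the limit on all 6 arrays. In sign, 5 of these 6 were negative and 1 positive, where all 324 tested probes divided into 169 negative and 155 positive. The liver probes had a median log2 difference of -0.14, against -0.012 for all tested probes. Of the 6, 0 passed the test, where 0.309% of all tested probes passed. An unadjusted limma p under 0.05 was found for 2 liver probes, against 15.7% of all tested probes. miR-122-5p, the main miRNA of hepatocytes, had normalized means of 12.03 ± 0.0577 in cisplatin and 12.24 ± 0 in control arrays (SD, n = 3 each). Its log2 difference was -0.21 (SE 0.0497, limma adjusted p = 0.129). The control values were identical after quantile normalization, so they add no spread to this SE. miR-122-3p, the partner strand, averaged 7.45 ± 0.0748 in cisplatin and 7.81 ± 0.0956 in control arrays (SD, n = 3 each). The log2 difference of miR-122-3p was -0.37 (SE 0.0723, limma adjusted p = 0.129). These 2 arms were the liver probes with an unadjusted limma p under 0.05, and the other liver probes lay between -0.193 and 0.021. Both arms of miR-122 were higher in cisplatin in 0 of 3 pairs, and whether they move with a member was not tested. The summed foreground of the liver probes overlapped, at 8421 to 10598 in cisplatin and 8383 to 9878 in control arrays. Above the limit on all 6 arrays were 3 of 10 endothelial, stromal and muscle probes and 0 of 6 blood probes. Among all 2019 human probes 243 were. Above it on no array were 2 of the 10 and 1 of the 6, so most blood probes passed on part of the arrays. The most frequent of these blood probes passed on 2 of 3 arrays in each group. The summed foreground of these lists also overlapped between groups, at 2181 to 2501 in cisplatin and 2240 to 2459 in control arrays for the endothelial, stromal and muscle probes, and at 1272 to 1393 in cisplatin and 1306 to 1473 in control arrays for the blood probes.

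Of 21 alternative settings, 15 changed the processing and 6 left out 1 array each, and under 0 of them did a member pass the adjusted threshold. miR-28-5p was below 0 under 21 of 21, from -0.244 to -0.0031, with adjusted p-values from 0.465 to 0.988. Some scalings moved all tested probes together, and less that common shift the 15 processing settings gave -0.218 to -0.105 for miR-28-5p and -0.0614 to -0.0133 for miR-151a-3p. On the same basis miR-28-3p ran from -0.0693 to 0.0277 and miR-151a-5p from -0.0311 to 0.103. The sign of miR-151a-3p, less the shift, was negative under all 15, while miR-28-3p and miR-151a-5p took both signs. With the shift left in, miR-151a-3p was positive under 4 of the 21 settings. Many settings reuse the same normalized values or differ by a constant per array, so these tallies do not count independent checks.

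**Figure D5:**
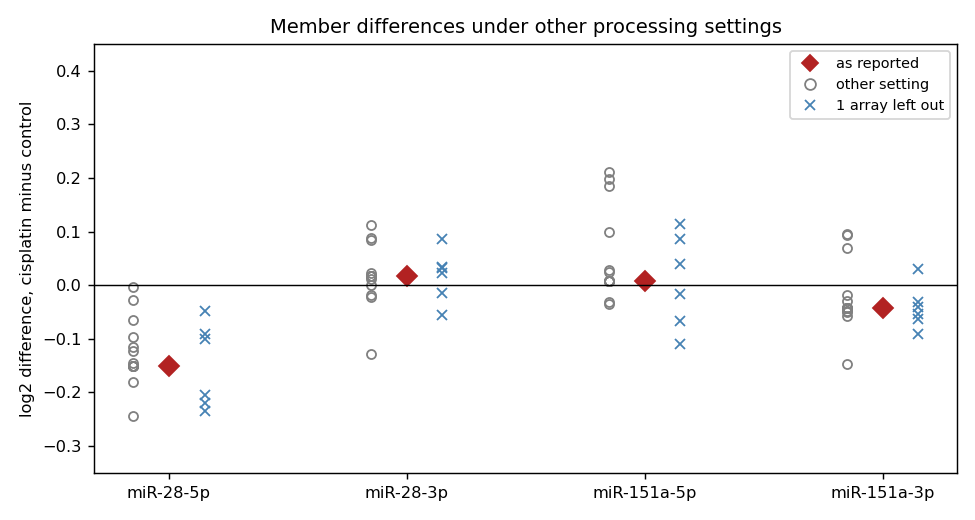
Log2 difference, cisplatin minus control, of the 4 tested members as reported (red diamonds), under other processing settings (grey circles) and with 1 array left out (blue crosses). Values are drawn without removing the shift common to all tested probes. Those of miR-28-5p lie below 0 throughout, and the highest, 0.211 for miR-151a-5p with 75th percentile scaling, is 0.103 less that shift.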

How the data were processed

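The authors deposited, per the file headers, linear intensity values for the pixels of each spot and its local background. Per the labels, RNA was labelled with Hy5, whereas the signal columns are named after the laser line used for green dyes, which the sources used here do not settle. Which scanner and software were used is not given in the sources used here. A value table deposited by the authors also holds intensity. Its listed values are the scanner foreground less the trimmed blank mean, over 1 factor per array (largest residual 5.4e-06), with a median of 31 on each array and 1031 to 1321 probes not listed. It served as an alternative.

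With limma 3.58.1 (R 4.3.3), normexp with an offset of 50 was applied to foreground and background medians, followed by log2 and quantile normalization of the 2019 human probes. A probe above the blank limit throughout either group was tested with lmFit and eBayes (4 residual, 1.52 prior degrees of freedom). A simulation with known changes checked the fit. Figures used matplotlib 3.10.9. The number of arrays limits the precision.

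Members and lists were chosen with earlier results of these data known. Named by rule are the members, miR-151b and miR-3139, up to 4 tested 8q24 probes by mean signal, and the 3 probes nearest each tested member in profile. Outside this rule, miR-939-5p is named for its detection. Both arms of miR-122 are named as well, the liver probes with an unadjusted limma p under 0.05. All 23 of 24 listed 8q24 hairpins found in RefSeq lie on chromosome 8; the band itself was taken from background knowledge.

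Same-numbered samples deviated together from their group means over the tested probes, with correlations of 0.44, 0.24 and 0.20, all above 0.1, so the labels' numbers were taken to pair them. The pairs enter the pairwise differences and the replicate block, but not the reported fit, its intervals or the permutation tests. Cisplatin 2 and control 3, of unlike number, correlated as well (0.23), above the 0.20 of pair 3. Cisplatin arrays lay at slide positions 4, 2 and 4 and control arrays at 3, 1 and 3 (replicates 1, 2 and 3), so that group and position cannot be told apart. Pair 2 is the comparison within positions 1 and 2. Same-numbered arrays thus held adjacent positions, and whether their correlations come from the slide or from shared cultures was not tested.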

Additional observations from a re-analysis of the deposited data

How the results depend on the processing

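Under each of 21 alternative settings 0 of the tested members passed the adjusted limma threshold, and 0 had an unadjusted p under 0.05. The replicate block, which uses the numbers as pairs, left each member's value as it was and its call too (adjusted p from 0.66 for miR-28-5p to 0.946 for miR-151a-5p). Under the block the SEs became 0.151 for miR-28-5p, 0.06 for miR-28-3p, 0.0396 for miR-151a-5p and 0.0772 for miR-151a-3p. Without it they were 0.134, 0.0853, 0.14 and 0.0759 in the same order. The block moved the number of probes that passed from 1 to 0, with 57 at an unadjusted limma p under 0.05. That number was also 0 without normalization, with spike control scaling, with pixel means, without a detection filter, with the authors' values, for probes detected on all 6 arrays and with trend and robust moderation. In those 7 fits 33, 19, 39, 97, 26, 39 and 38 probes had an unadjusted p under 0.05. It was 3 both without background correction and with the 75th percentile, 4 with cyclic loess and with median scaling, and 0 to 3 when 1 array was left out (3 in the absence of cisplatin replicate 2, otherwise 0). Relative to the reported setting, all tested probes together moved in median by 0.11 with the 75th percentile, by -0.13 with spike controls and by 0.15 with the authors' values. The members' median became 0.103 with the 75th percentile and -0.138 with spike controls, -0.0041 in both less the shift. The 8q24 median became 0.200 without normalization, 0.225 with the 75th percentile, -0.0165 with spike controls and 0.284 with the authors' values, and less the shift it was 0.118 in the first 3 and 0.131 in the last. It was 0.113 with median scaling, 0.125 for probes detected on all 6 arrays (which leaves out miR-939-5p), 0.133 without cisplatin replicate 2 and 0.110 without control replicate 1. Leaving out 1 array gave -0.0704 to 0.0311 for the members' median. Signs turned for miR-28-3p without background correction (-0.0173), with spike controls (-0.129, or 0.0051 less the shift) and with pixel means (-0.0213), and for miR-151a-5p with cyclic loess (-0.0349) and spike controls (-0.0306, or 0.103 less the shift). They also turned for miR-151a-3p without normalization (0.0692), with the 75th percentile (0.0937) and with the authors' values (0.0954), each negative less the shift (-0.0133, -0.0133 and -0.0575). With 1 array left out, values ran from -0.235 to -0.0488 for miR-28-5p, from -0.0547 to 0.0867 for miR-28-3p, from -0.109 to 0.114 for miR-151a-5p, from -0.091 to 0.0302 for miR-151a-3p and from -0.0667 to 0.199 for miR-151b. The arm difference ran from -0.269 to -0.0774 for miR-28 and from -0.0768 to 0.140 for miR-151a. The number of member values above the blank limit was 27 of 36, 29 with a trimmed limit and 24 with 3 SD. Except for the common shift, the cause of a turn was not tested.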
